A study of Homo sapiens with 6 samples.

Results

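The genes described here are 10 of the 17149 genes with a deposited value: the alpha tubulins TUBA1A, TUBA1B, TUBA1C and TUBA4A, the beta tubulins TUBB, TUBB2A, TUBB3, TUBB4B and TUBB6, and stathmin (STMN1). They were chosen by name and found by their gene numbers, and all 10 were detected in every library. RNA was sequenced from MDA-MB-231, an established cell line of triple negative breast cancer (TNBC), after transfection with siRBCK1, an siRNA against the ubiquitin ligase gene RBCK1, or with siControl, a control siRNA. The sources do not say which siRNA duplex against RBCK1 was used. Each group had 3 libraries, and both groups shared the cell line and the transfection. The sources do not say whether the libraries came from separate cultures, so the p-values cover only the spread of these 6 libraries, and part of it may be technical. All values are FPKM, fragments per kilobase of transcript scaled to the fragments of a library, so that levels of different genes can be compared per length.

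Microtubules are hollow polymers of alpha and beta tubulin heterodimers, and the isotypes of each family are encoded by separate genes whose proteins differ mostly at the carboxy-terminal tail. Stathmin binds free tubulin heterodimers and promotes microtubule depolymerization until it is phosphorylated. Cells also control their tubulin mRNAs from the protein side: when free tubulin is abundant, TTC5 binds the first residues of a nascent tubulin chain on the ribosome, and through SCAPER and the CCR4-NOT deadenylase the mRNA is degraded.

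The coding starts of the tubulins are shown because they encode the residues that this control reads, with that of STMN1, not a tubulin, beside them. All are given 5′ to 3′ from GENCODE 29 transcripts on GRCh38, with the first 4 codons in capitals.
TUBA1A, TUBA1B and TUBA1C: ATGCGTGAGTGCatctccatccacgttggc
TUBA4A: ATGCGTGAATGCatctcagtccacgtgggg
TUBB: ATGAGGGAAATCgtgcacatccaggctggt
TUBB2A: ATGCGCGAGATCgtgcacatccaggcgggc
TUBB3: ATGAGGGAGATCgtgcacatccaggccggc
TUBB4B: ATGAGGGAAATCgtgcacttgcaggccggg
TUBB6: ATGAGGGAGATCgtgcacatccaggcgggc
STMN1: ATGGCTTCTTCTgatatccaggtgaaagaa

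TUBA1A, TUBA1B and TUBA1C began with the same 30 bases, which an intron divides in the alpha genes and in STMN1, and over the whole coding sequence they were 95.9% to 97.2% identical to each other. TUBA4A was 84.4% to 85.7% identical to these 3 genes, the beta genes were 80.9% to 87.7% identical to each other, and alpha genes were 52.2% to 54.5% identical to beta genes. The coding ends of TUBA4A and the beta tubulins are shown because the tail is where isotypes differ most and where most tubulin modifications are placed. They are the last 60 bases, with the stop codon in capitals.
TUBA4A: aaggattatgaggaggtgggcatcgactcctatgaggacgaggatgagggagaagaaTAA
TUBB: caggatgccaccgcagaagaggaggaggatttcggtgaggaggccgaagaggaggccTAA
TUBB2A: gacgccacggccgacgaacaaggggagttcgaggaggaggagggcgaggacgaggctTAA
TUBB3: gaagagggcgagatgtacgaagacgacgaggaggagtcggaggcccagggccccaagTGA
TUBB4B: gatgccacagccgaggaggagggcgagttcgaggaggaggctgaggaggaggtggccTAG
TUBB6: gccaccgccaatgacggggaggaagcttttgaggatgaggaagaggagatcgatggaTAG

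RBCK1 itself was at 41.53, 46.15 and 45.61 FPKM in siRBCK1 cells, against 64.96, 63.62 and 73.37 FPKM in siControl cells. Its mean was 66% of the siControl mean, a log2 fold change of -0.59 (SE 0.067, limma adjusted p = 6.55e-05). Of 11135 genes tested, 36.8% passed an adjusted p of 0.05 as higher in siRBCK1 cells and 17.1% as lower, 53.9% in all, and the groups did not overlap for 62.8%. Over all these genes the median log2 fold change was 0.11. Trimmed-mean scaling removes the trimmed mean of the log2 ratios of each library to a reference library. It moved the median to 0.01, largely by construction, and the share of higher genes among those called to 48.8%, against 68.4% as deposited. Changes are therefore also given relative to 0.11. Sums of FPKM were 587248.4 to 594194.1 in siRBCK1 libraries, against 614082.0 to 659065.0 in siControl libraries. Read totals were not given, so the depth is unknown. The markers VIM, CD44, CAV1, AXL and MSN were at 167.47 FPKM or more in every library, ESR1, PGR and CDH1 were at 0.25 FPKM or less, and ERBB2, EPCAM and GATA3 were detected at up to 18.42, 8.78 and 5.99 FPKM. The table of siRBCK1 replicate 2 is headed as replicate 1, but only 0.555% of its values at 1 FPKM or more matched those of replicate 1 exactly.

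Of the 10 genes, 4 were higher in siRBCK1 cells (TUBA1A, TUBA1C, TUBB3 and STMN1), 3 were lower (TUBA4A, TUBB2A and TUBB4B), and 3 did not pass the test (TUBA1B, TUBB and TUBB6). The groups did not overlap for 9 of the 10. These counts stand against the 36.8% higher, 17.1% lower and 62.8% without overlap among all tested genes, and the median log2 fold change of the 10 genes was 0.10, close to that of all genes. Each tubulin family held genes that were higher and genes that were lower, although the higher beta tubulin, TUBB3, lost its call under trimmed-mean scaling. The calls of the smaller changes depended on how the libraries were scaled. TUBA1A, TUBA1C, TUBA4A, TUBB2A and TUBB4B kept their direction and their call under all 14 alternative settings, which included 4 other scalings and leaving out each library. STMN1 lost its call under that scaling and after removal of the length and GC trend.

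**Figure D1:**
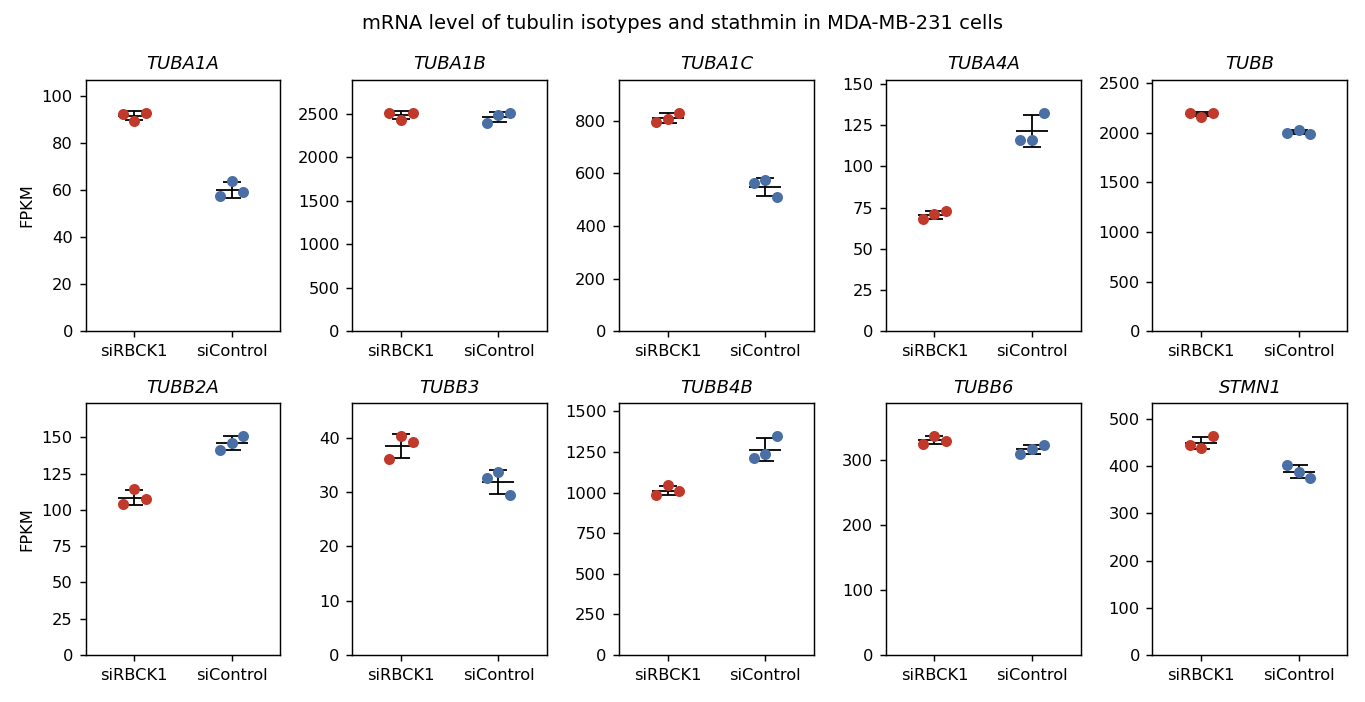
mRNA levels of the 10 genes in FPKM on linear axes that start at 0, with 1 point per library, siRBCK1 left and siControl right. Horizontal lines are group means and error bars are SD (n = 3). The groups overlap only for TUBA1B, and TUBA4A, TUBB2A and TUBB4B are the genes whose siRBCK1 points lie below the siControl points.

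Per length, the most abundant of the 10 mRNAs was TUBA1B in both groups, at a mean of 2485 FPKM in siRBCK1 cells and 2462 FPKM in siControl cells, rank 27 among all genes by mean over the 6 libraries. TUBB, TUBB4B, TUBA1C, STMN1, TUBB6 and TUBB2A followed in this order in both groups. TUBA1A stood above TUBA4A in siRBCK1 cells, and TUBA4A above TUBA1A in siControl cells. TUBB3 was the lowest in both groups. No neighbours in either order overlapped in their range over 3 libraries.

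TUBA1A, the isotype best known from developing neurons, lies on chromosome 12 from 49184795 to 49189080 on the minus strand (GRCh38, RefSeq). It was at 92.52, 89.43 and 93.04 FPKM in siRBCK1 cells, against 57.39, 63.70 and 59.12 FPKM in siControl cells. Every siRBCK1 library was above every siControl library. The means were 91.7 ± 1.95 FPKM in siRBCK1 cells and 60.1 ± 3.26 FPKM in siControl cells (SD, n = 3 each), which gave a log2 fold change of 0.60 (SE 0.054, limma adjusted p = 1.39e-05), or 0.49 above the median of all genes. As deposited, this was the largest rise among the 10 genes, close to that of TUBA1C, which was larger after quantile normalization (0.75, against 0.59 for TUBA1A) and without siControl replicate 1 (0.58, against 0.57). Over all alternatives its log2 fold change stayed between 0.48 and 0.71.

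TUBA1C, a broadly expressed alpha tubulin, lies on the same chromosome from 49227926 to 49274600 on the plus strand. It was at 794.74, 805.35 and 830.88 FPKM in siRBCK1 cells, against 562.62, 574.71 and 511.02 FPKM in siControl cells. The 2 groups were far apart, with siControl replicate 3 the lowest of all. The means were 810 ± 18.6 FPKM in siRBCK1 cells and 549 ± 33.8 FPKM in siControl cells (SD, n = 3 each), which gave a log2 fold change of 0.56 (SE 0.057, limma adjusted p = 3.22e-05) and 0.45 above the median of all genes. TUBA1C gained most in absolute level among the alpha tubulins.

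TUBA1B, the main alpha tubulin of these cells, lies from 49127782 to 49131395 on the minus strand of chromosome 12. It was at 2515.57, 2432.46 and 2506.94 FPKM in siRBCK1 cells, against 2396.00, 2483.10 and 2505.89 FPKM in siControl cells. The groups overlapped. The log2 fold change was 0.01 (95% interval -0.11 to 0.13, limma adjusted p = 0.844). Under other scalings it lay between -0.11 (trimmed mean, limma adjusted p = 0.29) and 0.20 (quantile normalization, limma adjusted p = 0.000662). Relative to the median of all genes it was at -0.10.

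TUBA4A, which is most abundant in platelets, muscle and brain, lies on chromosome 2 from 219249710 to 219254740 on the minus strand. It was at 68.07, 70.83 and 72.75 FPKM in siRBCK1 cells, against 116.30, 115.87 and 132.66 FPKM in siControl cells. All 3 siRBCK1 libraries were well under the lowest siControl library. The means were 70.5 ± 2.35 FPKM in siRBCK1 cells and 122 ± 9.57 FPKM in siControl cells (SD, n = 3 each), which gave a log2 fold change of -0.77 (SE 0.062, limma adjusted p = 6.21e-06), and -0.88 relative to the median of all genes. As deposited, it was the largest change of the 10 genes in either direction. With a common sum per library TUBA1A changed more (0.71, against -0.67 for TUBA4A). Over all alternatives the log2 fold change of TUBA4A stayed between -0.89 and -0.67.

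Reads of such similar genes can be placed on the wrong one. Of all 100-base windows of the transcripts, 26.6% of TUBA1A, 32.1% of TUBA1B and 11.5% of TUBA1C also occurred in a transcript of another of the 10 genes, so the split among these 3 is uncertain. With overlapping genes and pseudogenes included, the shares were 26.6% for TUBA1A, 71.1% for TUBA1B and 29.6% for TUBA1C. The GENCODE entries of TUBA1A and TUBA1C overlap on opposite strands, so part of their shared windows may come from that overlap. At loci that do not overlap the gene, the shares were 15.7% for TUBA1A, 37.2% for TUBA1B and 9.89% for TUBA1C. Read length and strand use were not given. None of the windows of TUBA4A occurred at another locus, but 27.4% overlapped STK16 or TUBA4B, which lie on the opposite strand of the same place. STK16 was at 18.6 ± 0.635 FPKM in siRBCK1 cells and 18.3 ± 0.535 FPKM in siControl cells (SD, n = 3 each), at a log2 fold change of 0.02 (limma adjusted p = 0.808), and TUBA4B was at 0.16 FPKM or less in every library. These 2 neighbours and the window search were looked at after the values were seen.

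The promoters of the alpha tubulins with the largest fall and the largest rise as deposited are shown side by side, from 250 bases before to 50 after a RefSeq start (GRCh38.p14, minus strand, 5′ to 3′). Capitals mark 3 motifs on either strand: the CCAAT box (searched as CCAAT), the TATA box (searched as TATAA or TATATA) and the GC box (searched as GGGCGG). In TUBA4A the capitals nearest the start hold a TATA box that runs into a GC box.
TUBA4A (chr2:219253869-219254168): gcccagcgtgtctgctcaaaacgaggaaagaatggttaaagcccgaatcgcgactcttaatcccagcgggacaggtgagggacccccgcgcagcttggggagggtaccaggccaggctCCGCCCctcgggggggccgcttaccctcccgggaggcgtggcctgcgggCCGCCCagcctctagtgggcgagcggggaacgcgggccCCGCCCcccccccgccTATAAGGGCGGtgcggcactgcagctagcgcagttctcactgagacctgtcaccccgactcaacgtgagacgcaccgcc
TUBA1A (chr12:49189031-49189330): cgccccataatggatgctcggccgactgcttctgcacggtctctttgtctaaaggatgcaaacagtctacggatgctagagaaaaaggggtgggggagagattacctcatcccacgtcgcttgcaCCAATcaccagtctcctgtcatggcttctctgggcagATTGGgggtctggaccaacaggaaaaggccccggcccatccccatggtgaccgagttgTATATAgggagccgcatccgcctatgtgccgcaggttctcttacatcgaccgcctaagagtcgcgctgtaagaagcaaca
TUBA4A had 4 matches to the GC box, with first bases at -132, -83, -45 and -24 from the start, and a TATA box at -29. TUBA1A had the CCAAT box at -125 and -88 and a TATA box at -30, with no match to the GC box. Among 17 RefSeq windows of the 10 genes, 9 held a CCAAT box, 6 a TATA box and 10 a GC box, and 2 held the TEAD motif, searched as GGAATG. Of 35116 promoter windows in all, 34.6% held a CCAAT box, 21.2% a TATA box, 45% a GC box and 14% the TEAD motif. The 2 windows with the TEAD motif belonged to TUBB4B, which was lower in siRBCK1 cells, and to TUBB6, which did not pass the test.

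TUBB, the main beta tubulin of these cells, lies on chromosome 6 from 30720352 to 30725422 on the plus strand. It was at 2195.74, 2165.02 and 2205.01 FPKM in siRBCK1 cells, against 1999.63, 2028.81 and 1987.88 FPKM in siControl cells. The groups did not overlap. The means were 2189 ± 20.9 FPKM in siRBCK1 cells and 2005 ± 21.1 FPKM in siControl cells (SD, n = 3 each), which gave a log2 fold change of 0.13 (SE 0.052, limma adjusted p = 0.0611), which did not pass the test and lay 0.02 above the median of all genes. Its size depended on the scaling, from 0.01 under trimmed-mean scaling (limma adjusted p = 0.96) to 0.23 with a common sum per library (limma adjusted p = 0.000841) and 0.32 after quantile normalization (limma adjusted p = 0.00043). As deposited, it passed when siControl replicate 2 was left out (limma adjusted p = 0.0428) or when siControl replicate 3 was (limma adjusted p = 0.0167).

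TUBB4B, a broadly expressed beta tubulin that is also the isotype of motile cilia, lies on chromosome 9 from 137241287 to 137243707 on the plus strand. It was at 984.84, 1043.35 and 1008.88 FPKM in siRBCK1 cells, against 1211.64, 1235.28 and 1346.54 FPKM in siControl cells. All siRBCK1 libraries were below all siControl libraries. The means were 1012 ± 29.4 FPKM in siRBCK1 cells and 1264 ± 72 FPKM in siControl cells (SD, n = 3 each), which gave a log2 fold change of -0.32 (SE 0.058, limma adjusted p = 0.00109) and -0.43 relative to the median of all genes. The size of this fall depended on the scaling, between -0.44 and -0.11.

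TUBB2A, a beta tubulin abundant in brain, lies on chromosome 6 from 3153666 to 3157544 on the minus strand. It was at 103.80, 114.33 and 107.22 FPKM in siRBCK1 cells, against 141.20, 146.32 and 150.83 FPKM in siControl cells. The groups were separate. The means were 108 ± 5.37 FPKM in siRBCK1 cells and 146 ± 4.82 FPKM in siControl cells (SD, n = 3 each), which gave a log2 fold change of -0.43 (SE 0.054, limma adjusted p = 0.000117) and -0.54 relative to the median of all genes. Its transcript shared 56.4% of its windows with other loci, and 54.4% with its near copy TUBB2B, which was at 1.93 ± 0.34 FPKM in siRBCK1 cells and 2.16 ± 0.78 FPKM in siControl cells (SD, n = 3 each).

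TUBB3, the class III beta tubulin used as a neuronal marker and associated with resistance to taxanes, lies on chromosome 16 from 89921925 to 89936097 on the plus strand. It was at 36.06, 40.32 and 39.29 FPKM in siRBCK1 cells, against 32.65, 33.72 and 29.47 FPKM in siControl cells. The groups did not overlap, although siRBCK1 replicate 1 came close to siControl replicate 2. The means were 38.6 ± 2.22 FPKM in siRBCK1 cells and 31.9 ± 2.21 FPKM in siControl cells (SD, n = 3 each), which gave a log2 fold change of 0.26 (SE 0.067, limma adjusted p = 0.00735) and 0.15 above the median of all genes. Under trimmed-mean scaling it was 0.15 (limma adjusted p = 0.0719). A readthrough transcript on the same strand, AC092143.1, shares most of the TUBB3 sequence, and 89% of its windows occurred in other genes. Other neuronal markers stayed at 1.12 FPKM or less, with RBFOX3, ELAVL4 and DCX at 0.04 or less. The summed level of the 6 neuronal markers in the files was 2.07 to 2.35 FPKM in siRBCK1 libraries, against 0.88 to 1.66 FPKM in siControl libraries, but without SYT1 (1.03, 1.12 and 1.08 FPKM in siRBCK1 libraries, against 0.40, 0.42 and 0.31 FPKM in siControl libraries) the sums overlapped, at 1.04, 1.23 and 1.05 FPKM in siRBCK1 libraries, against 0.48, 0.86 and 1.35 FPKM in siControl libraries. Their part in the TUBB3 value was not tested.

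TUBB6, a beta tubulin of muscle and many other cells, lies on chromosome 18 from 12307669 to 12329826 on the plus strand. It was at 323.53, 336.06 and 329.46 FPKM in siRBCK1 cells, against 309.06, 315.97 and 323.29 FPKM in siControl cells. The lowest siRBCK1 library was level with the highest siControl library, a gap far smaller than the spread within either group. The log2 fold change was 0.06 (SE 0.047, limma adjusted p = 0.294), and it turned to -0.06 under trimmed-mean scaling. TUBB6 passed as higher after quantile normalization (0.17, limma adjusted p = 0.00404), with a common sum (0.16, limma adjusted p = 0.00661) and after removal of the length and GC trend (0.12, limma adjusted p = 0.0208). None of its windows occurred in another gene.

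STMN1 lies on chromosome 1 from 25884179 to 25906880 on the minus strand, with a coding length of 450 bases. It was at 444.30, 439.13 and 463.88 FPKM in siRBCK1 cells, against 402.51, 388.02 and 375.92 FPKM in siControl cells. The groups did not overlap. The means were 449 ± 13.1 FPKM in siRBCK1 cells and 389 ± 13.3 FPKM in siControl cells (SD, n = 3 each), which gave a log2 fold change of 0.21 (SE 0.05, limma adjusted p = 0.00572) and 0.10 above the median of all genes. Under trimmed-mean scaling it was 0.09 (limma adjusted p = 0.24), and after removal of the trend with transcript length and GC content it was 0.01 (limma adjusted p = 0.831). The summed level of 11 proliferation genes was also higher, at 959.73 to 975.57 FPKM in siRBCK1 libraries, against 857.64 to 883.63 FPKM in siControl libraries, and their part in the STMN1 value was not tested.

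**Figure D2:**
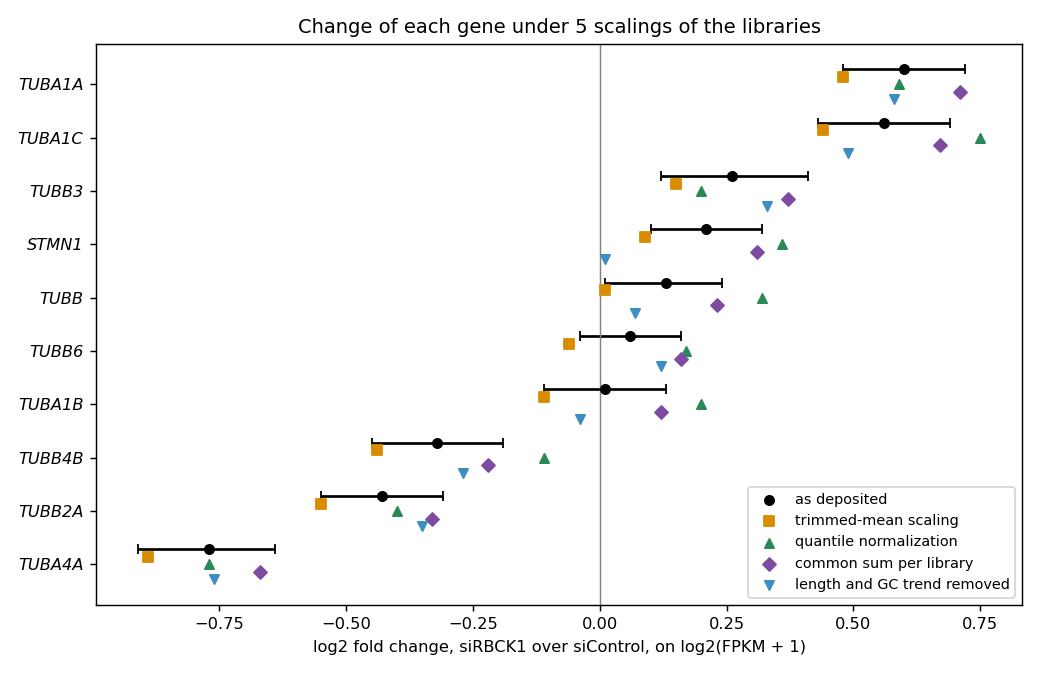
Log2 fold change of siRBCK1 over siControl on the log2(FPKM + 1) scale for each of the 10 genes, with the values as deposited (black, bars are the 95% interval) and under 4 other scalings. TUBA1A and TUBA1C stay right of 0 and TUBA4A, TUBB2A and TUBB4B stay left of 0 in all of them, whereas TUBA1B and TUBB6 cross 0.

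Within a family, any factor common to all genes of a library cancels. Shares were taken of the summed FPKM of all 9 alpha and all 9 beta tubulin genes in the files, and each difference was tested with a two-sided exact permutation test, in which 3 against 3 libraries cannot give a p below 0.1. TUBA1B made up 72.46%, 71.57% and 71.54% of alpha tubulin mRNA in siRBCK1 cells, against 76.47%, 76.68% and 78.08% in siControl cells. TUBA1C made up 22.89%, 23.69% and 23.71% in siRBCK1 cells, against 17.96%, 17.75% and 15.92% in siControl cells. The share of TUBA1C was 6.22 percentage points higher in siRBCK1 cells, and that of TUBA1B fell by 5.22 points. TUBA4A contributed 2.04% ± 0.0689 in siRBCK1 cells and 3.81% ± 0.29 in siControl cells (SD, n = 3 each), and TUBA1A contributed 2.65% ± 0.0174 in siRBCK1 cells and 1.88% ± 0.0755 in siControl cells (SD, n = 3 each). Taken as one sum because of their shared reads, TUBA1A, TUBA1B and TUBA1C made up 97.9% ± 0.0716 in siRBCK1 cells and 96.2% ± 0.29 in siControl cells (SD, n = 3 each), so the gain of 1.77 points mirrors the fall of TUBA4A.

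Among beta tubulin mRNAs, TUBB made up 60.22%, 58.50% and 59.73% in siRBCK1 cells, against 54.08%, 53.92% and 51.77% in siControl cells. TUBB4B made up 27.01%, 28.19% and 27.33% in siRBCK1 cells, against 32.77%, 32.83% and 35.07% in siControl cells. The share of TUBB was 6.22 points higher and that of TUBB4B fell by 6.05 points, the largest gain and the largest loss among the beta tubulins. TUBB2A made up 2.95% ± 0.127 in siRBCK1 cells and 3.88% ± 0.0553 in siControl cells (SD, n = 3 each). TUBB6 made up 8.96% ± 0.108 in siRBCK1 cells and 8.39% ± 0.0308 in siControl cells, and TUBB3 made up 1.05% ± 0.0523 in siRBCK1 cells and 0.849% ± 0.0708 in siControl cells (SD, n = 3 each). For all 9 isotypes the groups did not overlap, and every exact permutation p was 0.1, also after adjustment within the family, the smallest this design allows. The other 9 alpha and beta tubulin genes were at 2.65 FPKM or less and added at most 0.0351% of alpha and 0.0838% of beta tubulin mRNA in any library.

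**Figure D3:**
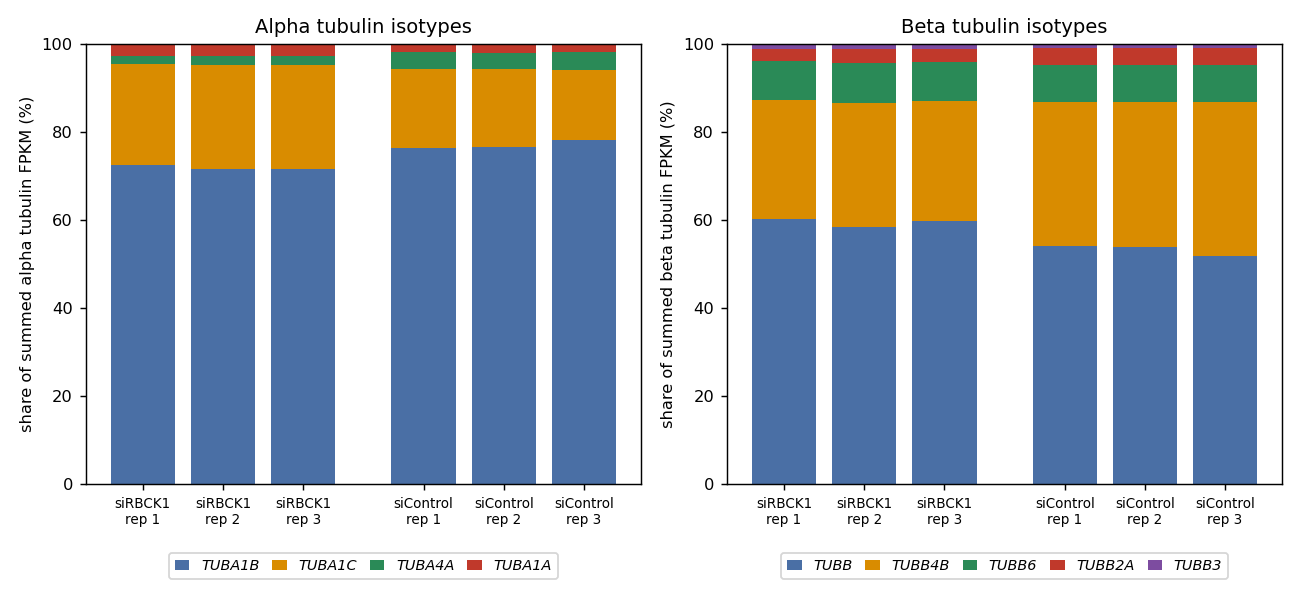
Share of each isotype in the summed FPKM of alpha tubulin genes (left) and beta tubulin genes (right), in percent, 1 bar per library with siRBCK1 left of siControl. TUBA1C is wider and TUBA1B and TUBA4A are narrower in siRBCK1 libraries, and TUBB is wider and TUBB4B narrower.

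Summed alpha tubulin mRNA was at 3471.6, 3398.9 and 3504.4 FPKM in siRBCK1 cells, against 3133.4, 3238.1 and 3209.5 FPKM in siControl cells. It was 8.29% higher in siRBCK1 cells with no overlap (exact permutation p = 0.1), but under trimmed-mean scaling the difference turned to -15.4 FPKM (exact permutation p = 0.9). Summed beta tubulin was at 3646.4, 3700.8 and 3691.9 FPKM in siRBCK1 cells, against 3697.3, 3762.9 and 3839.5 FPKM in siControl cells. These overlapped (exact permutation p = 0.2), with a mean difference of -86.9 FPKM. This difference turned to 382.0 after quantile normalization and to 296.0 when libraries were set to a common sum. The common sum is larger than the deposited sums, so only the sign of 296.0 can be set against -86.9 FPKM. The ratio of alpha to beta is free of any factor common to all genes, but not of a trend with transcript length or GC content. It was 0.952, 0.918 and 0.949 in siRBCK1 cells, against 0.847, 0.861 and 0.836 in siControl cells, or 10.8% higher with no overlap (exact permutation p = 0.1, the smallest possible). In bulk RNA, fewer cells that express a gene and less of its RNA per cell cannot be told apart.

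The other tubulins are not part of the heterodimer wall. TUBG1, the gamma-tubulin that nucleates microtubules, was at 210.34, 217.34 and 208.40 FPKM in siRBCK1 cells, against 247.06, 246.37 and 286.63 FPKM in siControl cells, a log2 fold change of -0.29 (SE 0.063, limma adjusted p = 0.00318). TUBD1, the delta-tubulin of centrioles, was at 5.31, 6.72 and 6.61 FPKM in siRBCK1 cells, against 4.06, 3.39 and 3.72 FPKM in siControl cells, a log2 fold change of 0.61 (SE 0.098, limma adjusted p = 0.000546). TUBG2 and TUBE1, whose log2 fold changes were 0.12 and 0.21, did not pass (limma adjusted p = 0.131 and 0.137). Among the relatives of stathmin, STMN3 was at 11.26, 12.29 and 11.27 FPKM in siRBCK1 cells, against 15.36, 15.87 and 16.80 FPKM in siControl cells, a log2 fold change of -0.43 (SE 0.068, limma adjusted p = 0.000445). STMN3 was thus lower where STMN1 was higher, while STMN2 and STMN4 stayed at 0.09 FPKM or less.

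Of the genes that make tubulin dimers, 8 folding cofactors were tested, of which 1 was higher and 2 were lower, with a median log2 fold change of -0.04 against 0.11 for all genes. Under trimmed-mean scaling 4 were lower and the other 4 did not pass. The counts as deposited of this and the following lists stand against 36.8% higher and 17.1% lower among all tested genes. ARL2, a small GTPase that works with the cofactors, was at 371 ± 13.5 FPKM in siRBCK1 cells and 546 ± 64.5 FPKM in siControl cells (SD, n = 3 each), which gave a log2 fold change of -0.55 (limma adjusted p = 0.000217). TBCB, which handles alpha-tubulin, was also lower (log2 fold change -0.29, limma adjusted p = 0.0019). TBCC, which helps to release the finished dimer, was higher (0.20, limma adjusted p = 0.0211), a call lost under quantile normalization, under trimmed-mean scaling and when any of siControl replicates 1 and 2 or siRBCK1 replicates 2 and 3 was left out. Of 14 chaperonin and prefoldin subunits, which fold nascent tubulin, 4 passed as higher, 1 as lower and 9 did not pass (median 0.00), against 3 higher and 3 lower under trimmed-mean scaling. PFDN2 rose by 0.48, CCT8 by 0.38, CCT5 by 0.36 and CCT2 by 0.17 on the log2 scale, the last of which was lost under trimmed-mean scaling, after removal of the length and GC trend, and without siRBCK1 replicate 1 or 3. PFDN5 was the gene that passed as lower (-0.16, limma adjusted p = 0.0479), and was named after its value was seen.

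Of 12 genes of tubulin mRNA autoregulation, 11 were tested, 3 passed as higher, 2 as lower and 6 not at all, with a median of 0.11, that of all genes. Under trimmed-mean scaling 2 were higher and 4 were lower. CNOT8, a deadenylase subunit, was at 15.41, 15.53 and 15.06 FPKM in siRBCK1 cells, against 34.90, 30.99 and 29.13 FPKM in siControl cells, a ratio of means of 0.484 (limma adjusted p = 2.72e-06). CNOT10, another subunit, was at -0.36, and CNOT1, the scaffold of the complex, was at 0.30 (lost after removal of the length and GC trend, like CNOT6 at 0.32, which was also lost under quantile and trimmed-mean scaling and without siRBCK1 replicate 3). TTC5, the factor that binds the residues encoded by the tubulin coding starts shown above, was under the expression minimum and was not tested. It was at 0.69, 0.52 and 0.80 FPKM in siRBCK1 cells, against 1.39, 1.20 and 0.85 FPKM in siControl cells. SCAPER, its adaptor, was at 2.62, 2.53 and 2.75 FPKM in siRBCK1 cells, against 1.98, 1.79 and 1.43 FPKM in siControl cells, a log2 fold change of 0.42 (SE 0.093, limma adjusted p = 0.00372). TTC5 was thus low in all libraries, with the siRBCK1 values under the siControl values and the SCAPER values above them.

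Of 22 enzymes that modify tubulin, 15 were tested, of which 6 passed as higher, 3 as lower and 6 not at all (median 0.08, with 3 higher and 4 lower under trimmed-mean scaling). ATAT1, the acetyltransferase of alpha-tubulin, was at 16.6 ± 0.993 FPKM in siRBCK1 cells and 23.5 ± 0.983 FPKM in siControl cells (SD, n = 3 each), which gave a log2 fold change of -0.47 (limma adjusted p = 0.000216). SIRT2, a deacetylase of alpha-tubulin, was also lower on the log2 scale (-0.27, limma adjusted p = 0.00898) and was named after its value was seen. HDAC6, another deacetylase on the list, did not pass (0.16, limma adjusted p = 0.0989). With a common sum per library HDAC6 passed as higher (0.26, limma adjusted p = 0.0308). SVBP, the partner of the vasohibins that remove the terminal tyrosine of alpha-tubulin, was at 21.8 ± 1.14 FPKM in siRBCK1 cells and 15.5 ± 0.582 FPKM in siControl cells (SD, n = 3 each), which gave a log2 fold change of 0.47 (limma adjusted p = 0.000201). The vasohibins themselves were low, with VASH1 at a mean of 1.04 FPKM in both groups and VASH2 at 0.16 FPKM or less in every library. TTLL12 of the ligase family rose by 0.37, and AGTPBP1, which shortens glutamate chains on the tails, rose by 0.33 on the log2 scale, lost after removal of the length and GC trend.

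Microtubule-associated proteins had the highest median among the lists of partner genes, 0.23. Of 24 listed, 17 were tested, and 11 of these were higher, 1 was lower and 5 did not pass, against 5 higher and 1 lower under trimmed-mean scaling. MAP9, among the 11, reached the minimum of 1 FPKM only in siRBCK1 libraries, so its call follows in part from the filter. MAPRE1 and MAPRE3, both end-binding proteins that track growing microtubule tips, moved in opposite directions. MAPRE1 was at 134 ± 1.79 FPKM in siRBCK1 cells and 94.3 ± 6.44 FPKM in siControl cells (SD, n = 3 each), which gave a log2 fold change of 0.51 (limma adjusted p = 5.78e-05). MAPRE3 was at 7.40, 7.40 and 7.11 FPKM in siRBCK1 cells, against 13.40, 13.71 and 13.92 FPKM in siControl cells, a log2 fold change of -0.82 (SE 0.065, limma adjusted p = 5.8e-06). CLIP1, a tip protein that end-binding proteins recruit, was at 12.36, 11.76 and 12.09 FPKM in siRBCK1 cells, against 6.84, 6.75 and 5.87 FPKM in siControl cells, a log2 fold change of 0.81 (SE 0.076, limma adjusted p = 1.84e-05). MAP4, which binds along the microtubule wall, rose by 0.44 on the log2 scale. After removal of the length and GC trend the rises of CLIP1, MAPRE1 and MAP4 were smaller, at 0.62, 0.36 and 0.29.

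Of 11 tested genes for depolymerases and severing enzymes, 4 passed as higher and 7 did not pass, with a median of 0.12, against 3 higher under trimmed-mean scaling. The kinesins KIF18A, KIF2C and KIF18B, which shorten or dampen microtubule ends, rose by 0.52, 0.34 and 0.33 on the log2 scale, and the call of KIF18B was lost under trimmed-mean scaling. Of 12 genes of the gamma-tubulin ring complex, TUBG1 among them, 3 passed as higher, 3 as lower and 6 not at all (median 0.04), against 3 higher and 4 lower under trimmed-mean scaling. TUBGCP2 and TUBGCP3, the core subunits that hold gamma-tubulin, moved apart, with log2 fold changes of -0.55 and 0.37, and NEDD1, which brings the complex to the spindle, rose by 0.52.

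Stathmin is switched off by phosphorylation, and of 14 listed kinases and phosphatases all were tested, of which 7 passed as higher, 5 as lower and 2 not at all (median 0.10, with 3 higher and 6 lower under trimmed-mean scaling). UHMK1, a kinase that phosphorylates stathmin, had the largest change of any gene named here, at 4.38, 4.07 and 4.01 FPKM in siRBCK1 cells, against 13.87, 13.74 and 11.97 FPKM in siControl cells. Its log2 fold change was -1.46 (SE 0.08, limma adjusted p = 4.65e-07). PRKACA, a catalytic subunit of protein kinase A, was also lower (-0.48, limma adjusted p = 3.89e-05). PRKACB, another catalytic subunit, was higher (0.27, limma adjusted p = 0.0114). CDK2, a cell cycle kinase, rose by 0.75 and STK38, a kinase of the NDR family, rose by 0.67 on the log2 scale. The phosphorylation of stathmin itself was not measured here.

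**Figure D4:**
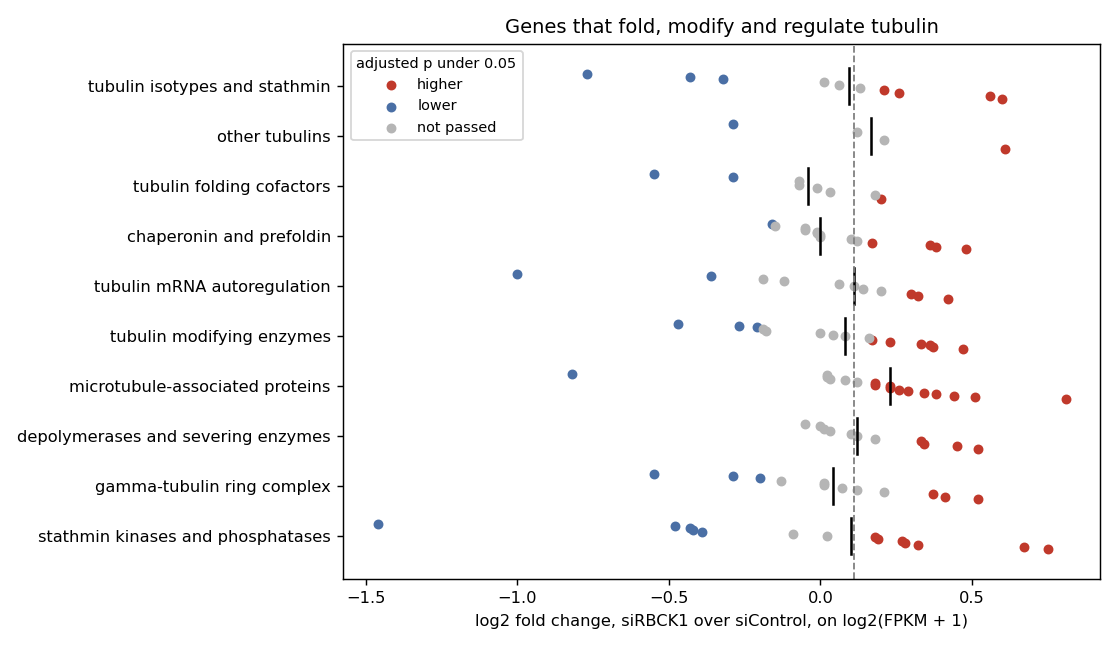
Log2 fold change of siRBCK1 over siControl on the log2(FPKM + 1) scale for the tested genes of each list, 1 point per gene, coloured by whether the gene was higher, lower or not past an adjusted p of 0.05. Black bars are list medians and the dashed line is the median of all tested genes, 0.11. Tubulin isotypes spread to both sides of it, and microtubule-associated proteins have the highest median of the lists drawn, 0.23.

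For the 3 isotypes with the largest changes as deposited, the genes with the most similar profile were found as those with the smallest Euclidean distance between centred log2(FPKM + 1) values over the 6 libraries. For TUBA4A these were IL32 (distance 0.096), NDUFC2-KCTD14 (0.103) and SH3BP1 (0.110). For TUBA1A they were PAQR5 (0.067), EAPP (0.070) and MSMO1 (0.087). TUBA1C had the closest neighbours, with TCEA1 at 0.037, PUM3 at 0.041 and SRF at 0.048. Neighbours by this measure are largely genes with a similar log2 fold change, 0.55 to 0.58 for those of TUBA1C. None of the 9 neighbours is a tubulin gene, but few of the 11135 tested genes are, so nothing can be read from this.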

How the data were processed

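RNA of 3 siRBCK1 and 3 siControl MDA-MB-231 libraries was sequenced on a BGI platform. The deposited tables hold FPKM (2 decimals) of 17149 genes, made by the authors on GRCh38 per the submitters' processing notes. For the aligner, the quantification tool and strand use, nothing is given in the sources used here. Symbols were found for 17022 gene numbers.

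Genes that reached 1 FPKM in 3 or more libraries (11135) entered limma 3.58.1 on log2(FPKM + 1), a scale that understates the change of low genes (R 4.3.3, intensity trend, two-sided, Benjamini-Hochberg adjustment over all of them, threshold 0.05). The deposited values are FPKM rather than counts, so no count test was run. Shares and sums were compared with two-sided exact permutation tests (SciPy 1.17.1). The genes named are the members, other tubulin and stathmin genes with a mean of 1 FPKM or more, and from each list up to 4 genes past the threshold without overlap and with a mean of 5 FPKM or more, by size of change. The neighbours by profile are 3 for each of the 3 members that changed most as deposited. SCAPER, TTC5, STK16, TUBA4B, SIRT2, HDAC6, VASH1, VASH2, PRKACB and the marker genes were named outside this rule. So were PFDN5, CDK1, PLK1, CCNB1, AURKA and MKI67. Members and lists were chosen with earlier results of these data known. Alternatives were 4 scalings, a filter of 5 FPKM or none, a pseudocount of 0.1, a replicate block and each library left out, and for shares a denominator of members only, near-identical genes as one sum and a log2 ratio. No sign that the replicate numbers paired the libraries was seen. The fit was tested on simulated data. Sequences are from GENCODE 29 and RefSeq, and the coding ends of some alpha tubulins are not reported here.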

Additional observations from a re-analysis of the deposited data

How the results depend on the processing

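TUBA1A, TUBA1C, TUBA4A, TUBB2A and TUBB4B kept their direction and call under all 14 alternatives. TUBB3 (0.15) and STMN1 (0.09) lost theirs under trimmed-mean scaling, and STMN1 (0.01) also after removal of the length and GC trend. TUBA1B was at -0.11 under trimmed-mean scaling, -0.04 after removal of that trend and between -0.01 and 0.03 with each library left out (-0.01 without siControl replicate 1), and TUBB6 at -0.06 under trimmed-mean scaling. Summed alpha tubulin turned to -15.4 FPKM under trimmed-mean scaling. Summed beta tubulin turned to 382.0 with quantile normalization and to 296.0 with a common sum, which is on a larger scale than the deposited FPKM. TUBA1B counted with TUBA1A and TUBA1C as one sum changed by 1.77 points, by construction. Other causes were not tested. All other isotype shares and the ratio of alpha to beta kept their direction in every alternative run. Removal of the length and GC trend was not among the alternatives run for shares, sums or the ratio. The split of higher and lower genes was 4103 and 1899 as deposited, 2724 and 2860 under trimmed-mean scaling, 2801 and 2687 with quantile normalization, 2769 and 2852 after trend removal, and 5168 and 1224 with a common sum. Members higher and lower were 2 and 3, 7 and 3, 4 and 3, and 7 and 3 in the same order of alternatives. With the replicate block, 3812 genes were higher and 1739 lower, with 4 and 3 of the members. Libraries with the same number correlated at -0.06, -0.187 and -0.038, and no siRBCK1 library correlated best with the siControl library of its own number. No sign of pairing by number was thus seen, although correlations this weak cannot exclude it. Depth is unknown, and with 3 libraries per group no exact permutation p can fall below 0.1.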

Other observations

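Proliferation genes, with which stathmin is often expressed, did not move one way. Of 11 such genes, 6 passed as higher, 3 as lower and 2 not at all, with a median log2 fold change of 0.20 against 0.11 for all tested genes, and 5 were higher and 4 lower under trimmed-mean scaling. TOP2A, a topoisomerase of dividing cells, was at 67.0 ± 3.55 FPKM in siRBCK1 cells and 40.1 ± 6.21 FPKM in siControl cells (SD, n = 3 each), which gave a log2 fold change of 0.74 (limma adjusted p = 0.000155). E2F1, BIRC5 and PCNA were also higher, with log2 fold changes of 0.74, 0.70 and 0.58. The lower genes were the mitotic kinases CDK1 (-0.43, limma adjusted p = 8.85e-05) and PLK1 (-0.29, limma adjusted p = 0.000547) and the cyclin CCNB1 (-0.17, limma adjusted p = 0.0183), which were named after their values were seen. AURKA, another mitotic kinase on the list, was higher as deposited (0.20, limma adjusted p = 0.00657), and was likewise named after its value was seen. The CCNB1 call was lost with a common sum per library and without siControl replicate 1, siRBCK1 replicate 1 or siRBCK1 replicate 2. MKI67 was at 31.83, 31.77 and 32.14 FPKM in siRBCK1 cells, against 34.14, 38.51 and 31.67 FPKM in siControl cells, with overlap between the groups.

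Markers of other cell types were near 0. The 2 blood markers in the files were at 0.24 FPKM or less, and the 3 endothelial markers at 0.35 FPKM or less.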
